A study of Mus musculus with 4 samples.

Results

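The genes described are the members of the mouse Hoxa, Hoxb, Hoxc and Hoxd clusters, which were found by symbol (Hox, a cluster letter and a paralog number) among the 21822 gene units of the count tables. There were 38 members: 10 of Hoxa on chromosome 6, 10 of Hoxb on chromosome 11, 9 of Hoxc on chromosome 15 and 9 of Hoxd on chromosome 2. The cells were iMN-ESCs, mouse embryonic stem cells on a C57BL/6 background whose fusion of the LIM-homeodomain factors Isl1 and Lhx3 is induced by doxycycline (Dox). Aggregates were kept in stem cell medium with LIF for 2 days, then in all-trans retinoic acid at 0.5 µM for 2 days. They then stayed in retinoic acid for another 2 to 3 days, either with 2 µg/mL Dox (2 libraries) or without Dox (2 libraries). Both groups carried the inducible fusion and both received retinoic acid. No group without the fusion received Dox, so effects of Dox and of the fusion cannot be told apart. The replicates are described as biological duplicates; whether they came from separate cultures is not stated, and p-values measure the spread between these samples.

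Hox genes encode homeodomain transcription factors that give cells along the head-to-tail axis their regional identity. The order of the genes within a cluster follows the order of their expression along the body: paralogs 1 to 3 mark hindbrain levels, 4 and 5 the caudal hindbrain and neck, 6 to 9 the forelimb and thoracic levels, and 10 to 13 the lumbar, sacral and tail levels. In the spinal cord they set which motor columns and pools form at each level. Retinoic acid induces the genes at the early-numbered end of each cluster, while Cdx factors and Wnt and FGF signals act on the later-numbered ones.

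Start-site sequences are shown for 4 members that span the results below: Hoxb8, which had the highest level without Dox, Hoxc4, the only tested member whose values with Dox all lay above those without, and Hoxb4 and Hoxa5, whose groups overlapped. Each runs from 250 bases before to 50 bases after the annotated start, on the gene's own strand, from RefSeq on build GRCm38.p6 (the counts rest on build mm9, so the coordinates are not those of the counted parts). The table gave 24 windows for 22 of the 38 members; Hoxb9 and Hoxc5 are given by name only. Capitals mark matches on either strand to the retinoic acid receptor sites AGGTCA and AGTTCA, the Cdx core TTTATG, the PBX-HOX core TGATNNAT, the LIM-homeodomain core TAATTA and the TATA box TATAAA.
Hoxb8, chr11:96281655-96281954, plus strand: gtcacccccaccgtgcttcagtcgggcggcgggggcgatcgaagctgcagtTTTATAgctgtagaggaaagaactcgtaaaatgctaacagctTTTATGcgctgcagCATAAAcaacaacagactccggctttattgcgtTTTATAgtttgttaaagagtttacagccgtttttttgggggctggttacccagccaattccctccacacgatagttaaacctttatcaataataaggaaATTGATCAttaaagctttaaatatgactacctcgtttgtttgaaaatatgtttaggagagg
Hoxc4, chr15:103034145-103034444, plus strand: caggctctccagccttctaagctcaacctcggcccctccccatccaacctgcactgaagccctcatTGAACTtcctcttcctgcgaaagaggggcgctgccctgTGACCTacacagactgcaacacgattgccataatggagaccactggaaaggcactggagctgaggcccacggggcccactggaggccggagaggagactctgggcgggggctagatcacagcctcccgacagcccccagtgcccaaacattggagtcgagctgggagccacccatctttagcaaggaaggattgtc
Hoxb4, chr11:96318017-96318316, plus strand: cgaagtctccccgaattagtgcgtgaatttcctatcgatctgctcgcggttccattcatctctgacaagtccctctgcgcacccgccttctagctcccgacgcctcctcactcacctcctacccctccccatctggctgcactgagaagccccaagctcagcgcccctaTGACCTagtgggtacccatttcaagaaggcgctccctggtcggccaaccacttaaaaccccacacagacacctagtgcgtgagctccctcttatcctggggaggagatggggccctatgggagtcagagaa
Hoxa5, chr6:52204538-52204837, minus strand: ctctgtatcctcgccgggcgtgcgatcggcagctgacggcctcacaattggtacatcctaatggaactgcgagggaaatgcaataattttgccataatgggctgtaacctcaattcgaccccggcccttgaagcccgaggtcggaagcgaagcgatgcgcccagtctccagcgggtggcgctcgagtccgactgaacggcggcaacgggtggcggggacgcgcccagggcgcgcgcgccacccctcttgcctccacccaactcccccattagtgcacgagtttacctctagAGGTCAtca
The Hoxb8 window held 2 Cdx cores, 2 TATA boxes and 1 PBX-HOX core. Hoxc4 held both receptor sites, and Hoxb4 and Hoxa5 each held 1 AGGTCA. No capitals overlapped between motifs in these windows. AGGTCA was present in 7 of 24 windows of the members and in 16.3% of the 32851 promoters in the table. For AGTTCA the figures were 2 of 24 and 14.0%, for TTTATG 5 of 24 and 11.9%, for TGATNNAT 4 of 24 and 8.85%, for TAATTA 2 of 24 and 5.29%, and for TATAAA 4 of 24 and 13.6%. These matches describe the letters only.

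The libraries with Dox held 37311037 and 53903936 counts in gene parts, against 28239859 and 24020832 without Dox. The labels were checked on the 2 genes of the fusion. Lhx3 stood at 125 and 108 CPM (counts per 1000000, after scaling between libraries) with Dox and at 0.404 and 0.286 CPM without Dox. Isl1 stood at 104 and 82.4 CPM with Dox, against 3.08 and 5.84 CPM without Dox. The 5 motor neuron markers examined (Mnx1, Isl1, Chat, Slc18a3 and Slc5a7) were all called higher by edgeR. Isl1 is itself part of the induced fusion, so its rise is no separate sign of motor neurons. None of the markers of other cells was called by edgeR, and their sums were as follows. The summed level of 5 neural progenitor markers was 345 and 237 CPM with Dox and 533 and 420 CPM without Dox. Olig2 alone among them was higher with Dox, at 1.926 and 1.776 CPM, against 1.395 and 1.673 CPM without Dox. That of 5 general neuron markers was 265 and 190 CPM with Dox and 372 and 295 CPM without Dox. In 7 paraxial mesoderm markers it was 31.0 and 34.5 CPM with Dox, against 16.5 and 22.6 CPM without Dox, with Msgn1 at 0 counts in all libraries. Twist1 held most of that sum (24.4 and 23.3 CPM with Dox, 11.7 and 16.6 CPM without Dox). The members did not share a direction: Tbx6, Meox1, Meox2 and Twist1 were higher with Dox, and Tcf15 and Pax1 were lower. Tcf15 had 1.12 and 1.10 CPM with Dox and 2.35 and 1.92 CPM without Dox. Meox2 had 1.04 and 2.76 CPM with Dox and 0 and 0.163 CPM without Dox (edgeR adjusted p = 0.126). Pax1 was too low to test. The 5 endoderm markers summed to 860 and 1039 CPM with Dox and 846 and 969 CPM without Dox. Gata4 held most of that sum (553 and 644 CPM with Dox, 560 and 591 CPM without Dox). Afp stood at 0.722 and 2.16 CPM with Dox and 0.881 and 0.571 CPM without Dox. The 5 tail bud markers summed to 9.61 and 6.08 CPM with Dox and 9.10 and 6.86 CPM without Dox, and the 3 pluripotency markers to 3.69 and 6.21 CPM with Dox and 3.93 and 5.39 CPM without Dox. In such bulk samples fewer cells of a type and less RNA per cell cannot be told apart, and the part of cell makeup in the Hox values was not tested.

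In retinoic acid without Dox abundant Hox transcripts reached farther along Hoxb than along the other clusters. Levels are compared between genes as CPM per kb of transcript, for which the median of all tested genes was 9.39. Of the 38 members 16 stood at or above that level and 22 below it. In Hoxb the high stretch ran from Hoxb2 to Hoxb9. In Hoxc it ended at Hoxc5, in Hoxa at Hoxa5 and in Hoxd at Hoxd4. All 12 members with paralog numbers 10 to 13 averaged 0.742 CPM per kb or less.

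**Figure D1:**
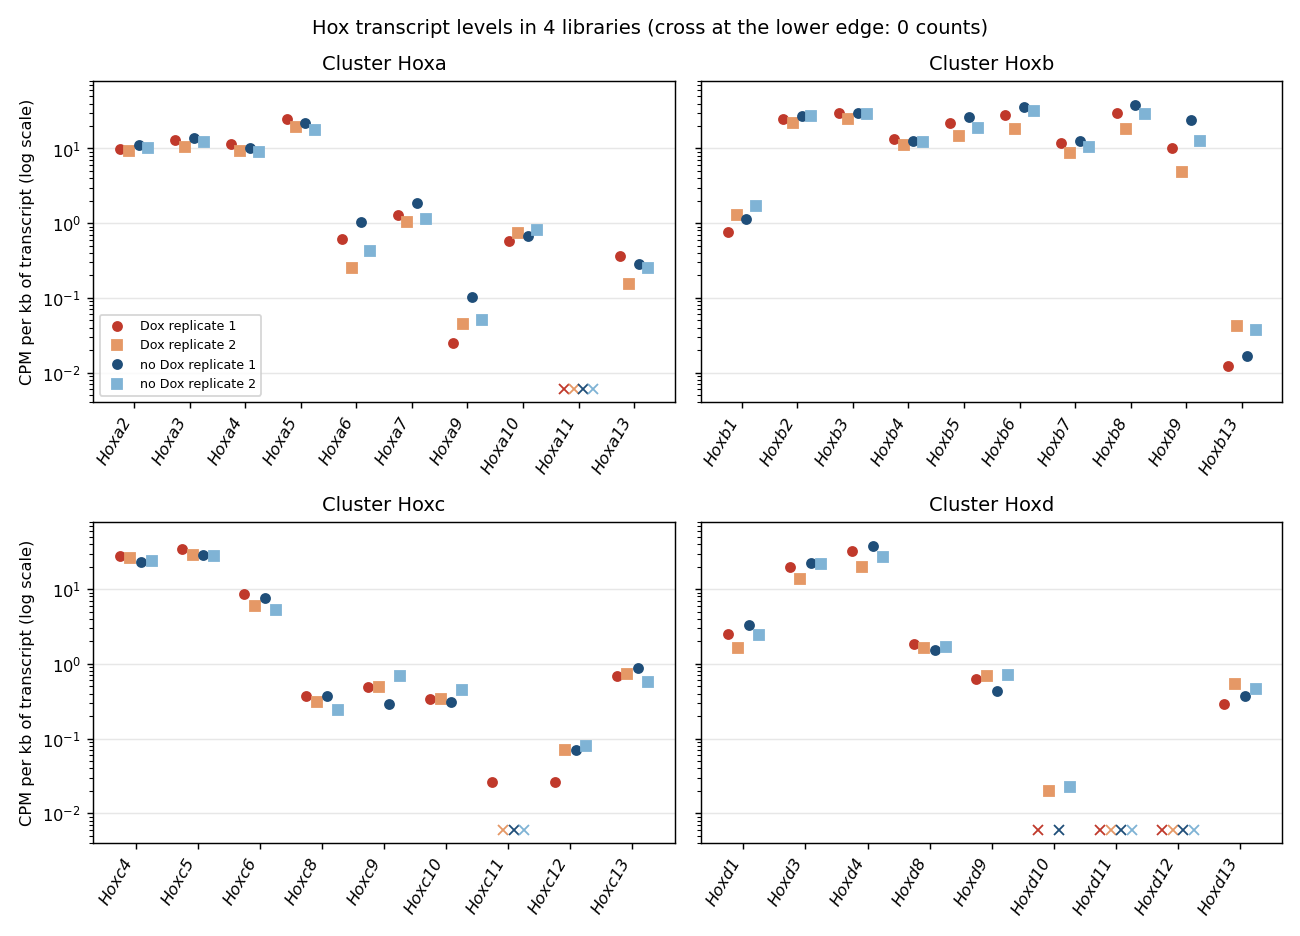
Level of each of 38 Hox genes (CPM per kb of transcript, log scale) in the 2 libraries with Dox (red and orange) and the 2 without Dox (dark and light blue), by cluster and paralog number; a cross at the lower edge is a library with 0 counts. Levels of 10 or more CPM per kb reach Hoxb9 in cluster Hoxb without Dox, but end at paralog 4 or 5 in the other clusters.

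The highest levels without Dox were in Hoxb8 with 38.5 and 29.2 CPM per kb, Hoxb6 with 35.6 and 31.5 CPM per kb and Hoxd4 with 37.9 and 26.8 CPM per kb. Next came Hoxb3 with 29.8 and 29.1 CPM per kb and Hoxc5 with 29.0 and 28.1 CPM per kb. The first 3 genes overlapped each other. Hoxb3 overlapped Hoxb8 and Hoxd4, and Hoxc5 overlapped Hoxd4, so the order of these neighbours was not resolved. Hoxb8 lay at the percentile 82.6 of 14077 tested genes with a known length, and Hoxc5 at 78.6. Transcript length affected part of the order: with the longest annotated transcript as length Hoxb6 averaged 22.6 and Hoxb2 14.1 CPM per kb, against 33.6 and 27.1 CPM per kb with the transcript that the counts name. Hoxb8 stayed first under every length tried.

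Hindbrain paralogs 1 to 3 split into genes at low and at high levels. Hoxb1, which in the embryo is confined to one hindbrain segment once the early phase has passed, had 0.757 and 1.28 CPM per kb with Dox and 1.14 and 1.70 CPM per kb without Dox. Hoxd1 had 2.49 and 1.65 CPM per kb with Dox and 3.33 and 2.41 CPM per kb without Dox (log2 fold change -0.48, SE 0.30, edgeR adjusted p = 0.707). Both were well under Hoxb2, which patterns facial motor neurons, at 24.5 and 21.9 CPM per kb with Dox and 27.2 and 26.9 CPM per kb without Dox. Hoxa2, needed for the second pharyngeal arch, stood at 9.87 and 9.24 CPM per kb with Dox and 11.1 and 10.3 CPM per kb without Dox (-0.16, SE 0.14, adjusted p = 0.832). In both Hoxb2 and Hoxa2 the 2 values with Dox lay below the 2 without.

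The third paralogs were all present. Hoxb3 had 96.6 and 79.4 CPM with Dox and 95.03 and 92.8 CPM without Dox, a log2 fold change of -0.09 (SE 0.13, 95% interval -0.42 to 0.23, edgeR adjusted p = 0.918). Hoxa3, which acts in the thymus and parathyroid as well as the hindbrain, had 33.4 and 27.3 CPM with Dox and 35.7 and 31.7 CPM without Dox (-0.15, SE 0.16, adjusted p = 0.858). Hoxd3 had 59.4 and 40.7 CPM with Dox and 67.2 and 63.6 CPM without Dox (log2 fold change -0.39, SE 0.19, adjusted p = 0.597). The groups of Hoxd3 did not overlap, and those of Hoxa3 and Hoxb3 did. Long transcripts of Hoxa3, Hoxb3 and Hoxd3 can span neighbouring Hox genes, and the counting rule for shared reads is not given beyond a row of ambiguous reads.

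At neck level, in paralogs 4 and 5, all 7 tested members had a 95% interval for the change inside 2-fold in either direction. The intervals of Hoxd4 (log2 -0.97 to 0.38) and Hoxb5 (-0.91 to 0.32) came near that limit. Hoxc5, which with Hoxa5 maintains phrenic motor neurons in mice, had 99.7 and 84.0 CPM with Dox and 84.8 and 82.0 CPM without Dox (log2 fold change 0.14, SE 0.13, interval -0.17 to 0.45, adjusted p = 0.836). Hoxa5 had 47.2 and 36.9 CPM with Dox and 41.2 and 33.6 CPM without Dox (0.17, SE 0.18, interval -0.26 to 0.60, adjusted p = 0.864). Values of both groups overlapped in both genes. Hoxb5 had 42.1 and 28.2 CPM with Dox and 50.7 and 35.5 CPM without Dox, with the replicate 1 library the higher one in each group.

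Among the fourth paralogs Hoxc4 had 55.5 and 51.4 CPM with Dox and 45.5 and 47.2 CPM without Dox (log2 fold change 0.20, SE 0.11, interval -0.08 to 0.48, adjusted p = 0.661). It was the only tested Hox gene with both libraries with Dox above both without, where 18.9% of all 14283 tested genes did so. Hoxd4, a caudal hindbrain gene that responds to retinoic acid in mice, had 84.1 and 50.6 CPM with Dox and 96.9 and 68.5 CPM without Dox (-0.30, SE 0.28, adjusted p = 0.840). Hoxb4 had 34.1 and 28.4 CPM with Dox and 32.6 and 31.2 CPM without Dox, and Hoxa4 had 18.3 and 14.7 CPM with Dox and 16.3 and 14.3 CPM without Dox. The groups of Hoxd4, Hoxb4 and Hoxa4 overlapped.

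At the forelimb and thoracic paralogs 6 to 9 the clusters parted. Hoxb9, which with the other ninth paralogs acts at thoracic levels, had 26.4 and 12.4 CPM with Dox and 61.1 and 32.3 CPM without Dox. The values with Dox were below both without, and in each group replicate 2 was well below replicate 1. The fitted log2 fold change was -1.27 (SE 0.43, interval -2.32 to -0.22). The unadjusted p was 0.0252 and edgeR's adjusted p was 0.356, so the gene was not called. No label ties replicate numbers to a shared origin, but with them in the model edgeR called Hoxb9 lower (adjusted p = 4.67e-08), as it did 6.08% of all genes. DESeq2 gave it an adjusted p = 0.0236, and edgeR without Dox replicate 1 gave a log2 fold change of -1.91 (adjusted p = 0.00495), where these fits called 0.812% and 0.859% of all tested genes lower. Leaving out Dox replicate 2 gave -0.80 (edgeR adjusted p = 0.525). With no Dox replicate 1 left out it was -0.73 (edgeR adjusted p = 0.612), and with its replicate 2 left out -1.66 (0.158).

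Hoxb8 had 78.0 and 47.9 CPM with Dox and 101 and 76.8 CPM without Dox (log2 fold change -0.50, SE 0.26, interval -1.13 to 0.12, adjusted p = 0.608). Dox replicate 1 lay just above no Dox replicate 2, so the groups overlapped. Without Dox replicate 1 the change of Hoxb8 was -0.90 (edgeR adjusted p = 0.0301). With each of the other libraries left out it ran from -0.69 to -0.17, with adjusted p from 0.312 to 1.0; the smallest change came without Dox replicate 2. Hoxb6 had 36.8 and 23.9 CPM with Dox and 47.0 and 41.6 CPM without Dox, without overlap (-0.55, SE 0.22, interval -1.09 to -0.01, unadjusted p = 0.0476, adjusted p = 0.478). Hoxb7 had 15.1 and 11.1 CPM with Dox and 16.3 and 13.4 CPM without Dox. Together Hoxb6 to Hoxb9 summed to 156 and 95.3 CPM with Dox and to 226 and 164 CPM without Dox. The neural progenitor marker sum (345 and 237 CPM with Dox, 533 and 420 CPM without Dox) was lower in the same libraries, although Olig2 within it was higher. The part of progenitor cells in the Hoxb values was not tested.

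The other clusters were lower at these positions, with Hoxc6 at 6.43 CPM per kb without Dox (percentile 41.8 of tested genes). Hoxc6, a determinant of forelimb motor columns, was the highest of them, with 13.6 and 9.46 CPM with Dox and 11.9 and 8.41 CPM without Dox (log2 fold change 0.17, SE 0.26, adjusted p = 0.931). Hoxc8, which marks caudal forelimb motor pools, had 0.696 and 0.586 CPM with Dox and 0.697 and 0.449 CPM without Dox. Hoxc9, which represses forelimb Hox genes in thoracic motor neurons, had 1.15 and 1.17 CPM with Dox and 0.697 and 1.63 CPM without Dox, so the spread without Dox enclosed both values with Dox.

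In Hoxa and Hoxd the same positions held few counts. Hoxa7 had 2.57 and 2.07 CPM with Dox and 3.71 and 2.28 CPM without Dox. Hoxa6 had the second lowest fitted change (-0.83, SE 0.65, interval -2.42 to 0.75, adjusted p = 0.798) on 20 and 12 counts with Dox and 25 and 9 counts without Dox. Hoxd8 had 4.84 and 4.26 CPM with Dox and 4.001 and 4.45 CPM without Dox. Hoxd9 had the highest fitted change of the tested members (0.22, SE 0.36, interval -0.66 to 1.09, adjusted p = 0.939), with 1.34 and 1.47 CPM with Dox and 0.918 and 1.51 CPM without Dox. Hoxa9 had 3 and 8 counts with Dox and 9 and 4 counts without Dox and was too low to test.

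Lumbar and tail paralogs 10 to 13 were low, and 7 of the 12 members had under 10 counts over the 4 libraries. Their 12 members summed to 5.16 and 6.04 CPM with Dox and 5.87 and 6.04 CPM without Dox. Hoxa11, Hoxd11 and Hoxd12 had 0 counts in all 4 libraries, which allows up to 0.0803 and 0.0549 CPM with Dox and 0.110 and 0.122 CPM without Dox (3 counts per library, counting error only). Hoxb13, Hoxc11, Hoxc12 and Hoxd10 had 9, 2, 9 and 3 counts over the 4 libraries together. The tested members were Hoxa10, a lumbar determinant (1.498 and 1.90 CPM with Dox, 1.73 and 2.08 CPM without Dox), Hoxc13 (1.71 and 1.78 CPM with Dox, 2.17 and 1.43 CPM without Dox), Hoxd13 (0.722 and 1.32 CPM with Dox, 0.918 and 1.14 CPM without Dox), Hoxc10 (0.642 and 0.641 CPM with Dox, 0.587 and 0.857 CPM without Dox) and Hoxa13 (0.482 and 0.201 CPM with Dox, 0.367 and 0.326 CPM without Dox). In all 5 the groups overlapped.

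Across the clusters edgeR called none of the 30 tested Hox genes, either higher (1.23% of all 14283 tested genes were) or lower (0.056%; 1.28% either way). The other 8 members had too few counts. An unadjusted p under 0.05 was found for 0 genes with higher values (6.26% of all genes) and for 2 with lower ones, Hoxb9 and Hoxb6 (4.02%). Calls by DESeq2 were Hoxb9 alone, and there were 0 by limma-voom. Adding the replicate number to the model called 6 Hox genes lower, where it called 6.08% of all genes lower; no label says that the numbers mark a shared origin. Adjusted p-values over the 30 genes ran from 0.356 to 0.999. The groups did not overlap in 6 members, lower with Dox in Hoxa2, Hoxb2, Hoxb6, Hoxb9 and Hoxd3 (5 of 30, where 19.9% of all genes were) and higher in Hoxc4. In all genes tested, 38.8% did not overlap in one direction or the other, a larger share than 6 of 30.

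The median log2 fold change of the tested Hox genes was -0.15, with a range of -1.27 to 0.22, where the median of all tested genes was -0.01 and their quartiles were -0.15 and 0.14. Of the 30, 20 had a fitted change below 0, as did 52.9% of all genes. Leaving out Dox replicate 2 gave a median of 0.00, and leaving out no Dox replicate 1 gave -0.04. By cluster the fitted change was below 0 in 9 of 9 Hoxb genes, 6 of 8 Hoxa, 3 of 6 Hoxd and 2 of 7 Hoxc genes. By paralog number it was below 0 in 7 of 7 genes from 1 to 3, 3 of 7 from 4 to 5, 6 of 11 from 6 to 9 and 4 of 5 from 10 to 13. Of the genes with fitted changes below 0, those above 0 once Dox replicate 2 was left out were Hoxb3 (0.06), Hoxb4 (0.12), Hoxb7 (0.05), Hoxa3 (0.01), Hoxa13 (0.49) and Hoxd4 (0.04).

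**Figure D2:**
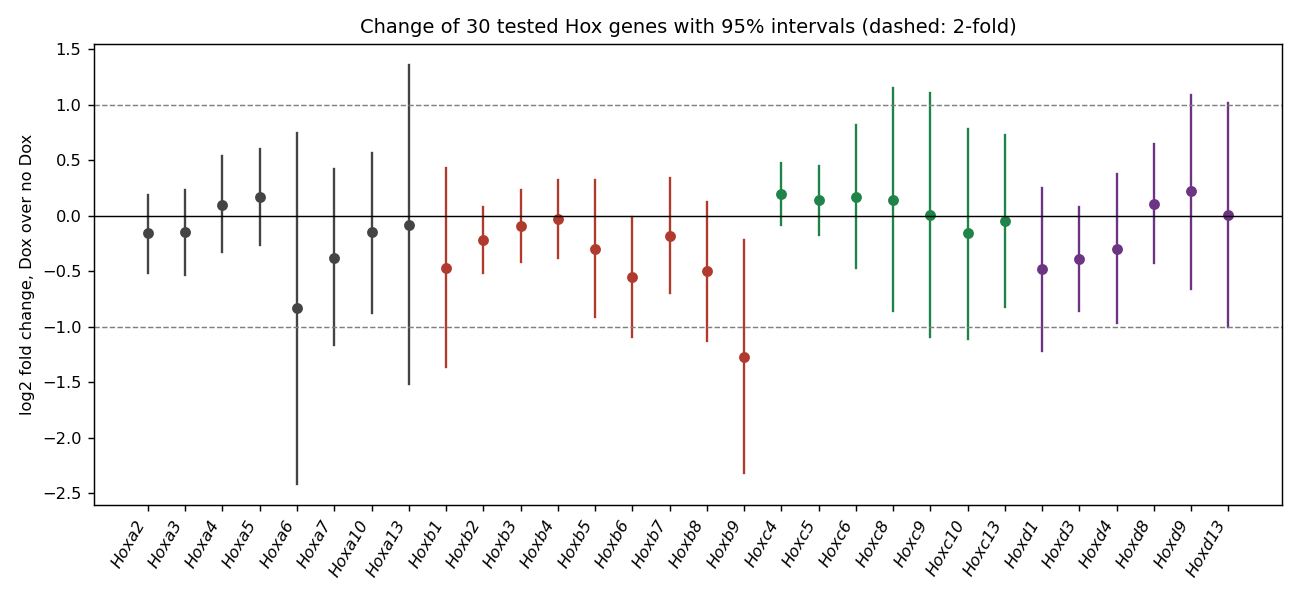
Fitted log2 fold change (Dox over no Dox) of the 30 tested Hox genes with its 95% interval, by cluster and paralog number; dashed lines mark 2-fold. The points run from -1.27 for Hoxb9 to 0.22 for Hoxd9, and the intervals of Hoxb9 and Hoxb6 lie below 0.

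The precision of these changes differed between genes. The interval lay inside 2-fold for 17 of the 30 genes, compared with 75.6% of all tested genes. It did so for 14 of the 18 genes that averaged at least 5 CPM without Dox, where the exceptions were Hoxb6, Hoxb8, Hoxb9 and Hoxd1, and for 3 of the 12 lower ones. For the 13 remaining genes a 2-fold change in at least one direction was not excluded by the interval.

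Summed over the members, paralogs 4 and 5 held the largest share of Hox counts. They gave 381 and 294 CPM with Dox and 368 and 312 CPM without Dox. Paralogs 6 to 9 gave 181 and 115 CPM with Dox and 249 and 183 CPM without Dox, or 22.1% and 18.5% of Hox CPM with Dox and 27.9% and 24.1% without Dox. Paralogs 1 to 3 gave 253 and 205 CPM with Dox and 271 and 258 CPM without Dox. Dox replicate 1 and no Dox replicate 2 nearly met in paralogs 6 to 9, and the groups stayed apart in share as in sum. By cluster, Hoxb summed to 371 and 270 CPM with Dox and 451 and 371 CPM without Dox. Hoxc summed to 173 and 149 CPM with Dox and 146 and 142 CPM without Dox. These sums are not scaled by length and were not tested.

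**Figure D3:**
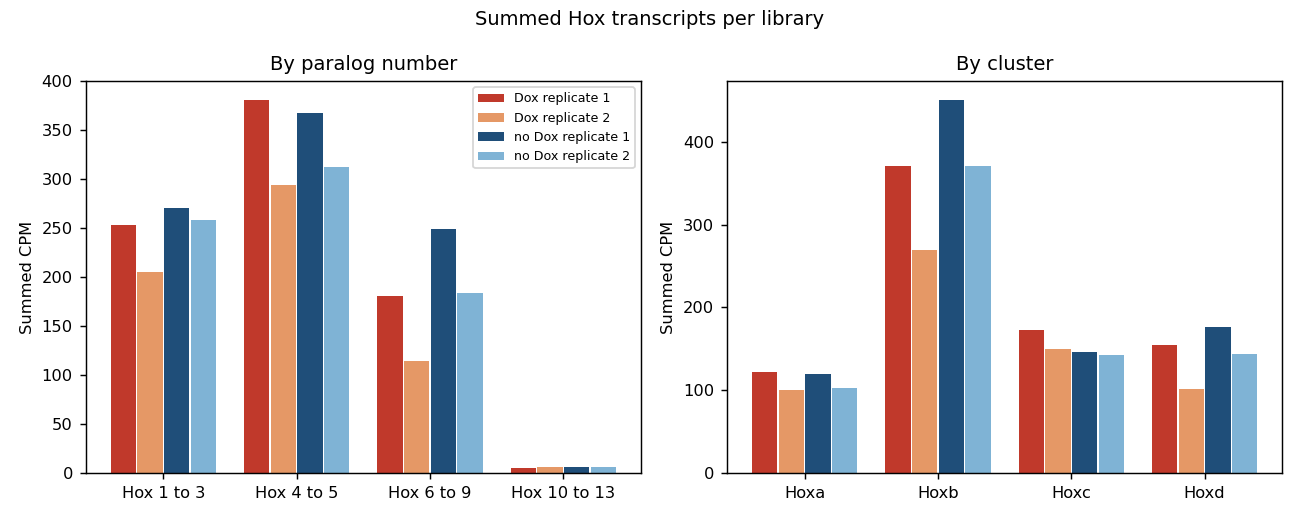
Summed CPM of the Hox genes in each library, by paralog number (left) and by cluster (right); each bar is 1 library, with Dox in red and orange and no Dox in dark and light blue. Paralogs 6 to 9, mostly Hoxb6 to Hoxb9, sum to 181 and 115 CPM with Dox and to 249 and 183 CPM without Dox. Paralogs 10 to 13 sum to about 6 CPM or less.

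Replicate 2 was the lower library for most Hox genes in both groups. With Dox, replicate 2 was below replicate 1 in 24 of 30 Hox genes (49.3% of all genes), with a median log2 ratio of -0.29 against 0.00 for all genes. Without Dox it was below in 22 of 30 (48.4% of all genes), with a median of -0.17 against 0.01. Both held in 21 of 30 genes, and in 35.6% of all genes. Hoxb9 had a log2 ratio of replicate 2 to replicate 1 of -1.08 with Dox and -0.92 without Dox, Hoxd4 of -0.73 and -0.50, and Hoxb8 of -0.70 and -0.40. Hoxb1 went the other way, with 0.76 with Dox and 0.57 without Dox. The neural progenitor and neuron marker sums given above were also lower in replicate 2 of each group. The endoderm, paraxial mesoderm and pluripotency sums were higher in it. Single markers did not all follow their sums. Nanog and Tcf15 were lower in replicate 2 of each group, and without Dox Tubb3 and Olig2 were higher in it. Zfp42 held most of the pluripotency sum (2.81 and 4.96 CPM with Dox, 2.61 and 4.29 CPM without Dox). The part of cell makeup in these ratios was not tested.

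**Figure D4:**
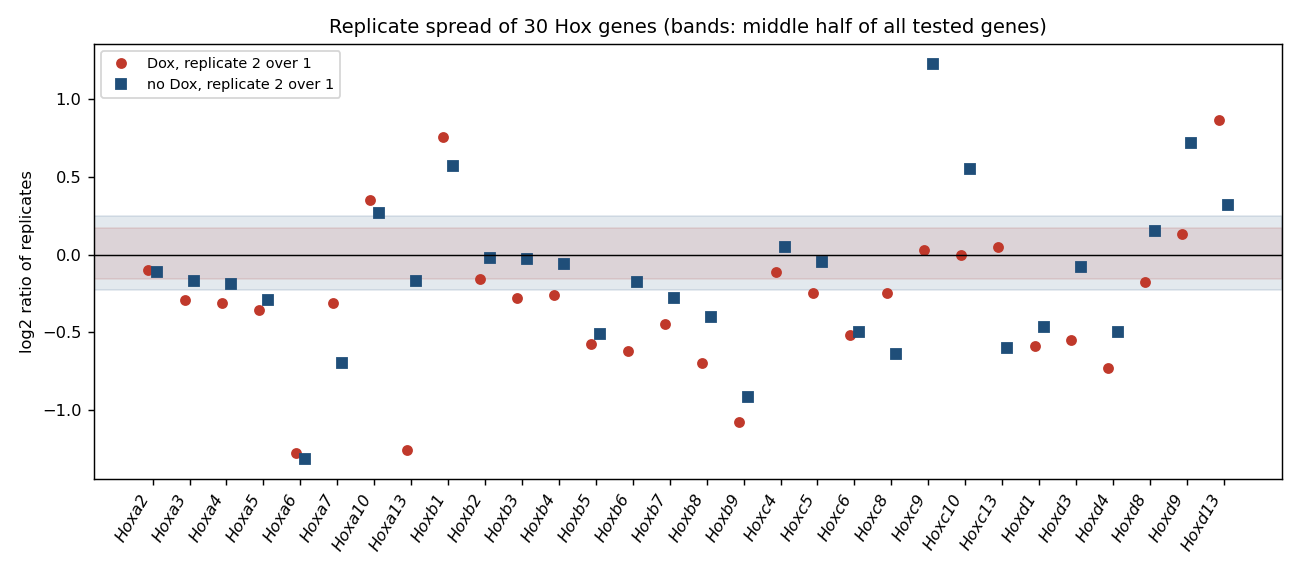
Log2 ratio of replicate 2 to replicate 1 for 30 Hox genes, within the libraries with Dox (red circles) and within those without Dox (blue squares); shaded bands run between the quartiles of all 14283 tested genes in each group. Most Hox genes lie below 0, down to -1.28 and -1.32 for Hoxa6, while Hoxb1 lies above 0 in both groups.

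The numbered parts of Hoxb9 lay in the same direction, and those of some other genes did not. Part 1 of Hoxb9 had 3.88 and 1.76 CPM with Dox and 9.73 and 4.16 CPM without Dox. Its part 2 had 22.5 and 10.7 CPM with Dox and 51.4 and 28.1 CPM without Dox. Both parts were thus lower in each library with Dox than in both without. In Hoxd4, parts 5 and 6 held 43.9% and 52.2% of its counts, and parts 1 to 4 held the rest. The log2 ratio of mean CPM was -0.27 and -0.35 for parts 5 and 6, but 0.74 and 0.44 for the sparse parts 1 and 2. In Hoxd3, part 3 with 83.4% of counts was at -0.41 and part 1 with 0.485% at 0.67. Parts of Hoxb3, Hoxb4 and Hoxc13 also lay on both sides of 0. In Hoxb3 part 5 held 74.7%, and in Hoxc5 part 2 held 85.4%. The tables give no position for a part.

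Other RNAs of the clusters were scarce. Hoxd3os1, an antisense transcript of Hoxd3, had 3.45 and 2.47 CPM with Dox and 2.13 and 1.51 CPM without Dox (log2 fold change 0.69, SE 0.32, adjusted p = 0.566), the opposite direction of Hoxd3 in fitted change. Hoxaas3 had 1.20 and 0.824 CPM with Dox and 1.36 and 1.10 CPM without Dox. Whether strand was used in counting is not given, so reads of a gene and its antisense partner may not be separated. Both are named after their values were seen.

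Of 19 regulators and cofactors of Hox genes, 17 were tested and edgeR called none higher or lower. Unadjusted p under 0.05 was reached by 7 with higher values (6.26% of all tested genes) and 1 with lower values (4.02%). The TALE homeodomain factor Meis2, which binds DNA together with Hox proteins, had 199 and 210 CPM with Dox and 129 and 133 CPM without Dox (log2 fold change 0.64, SE 0.11, adjusted p = 0.0641). Pbx2, another TALE cofactor, had 171 and 151 CPM with Dox and 182 and 168 CPM without Dox. DESeq2 called Meis2 higher (adjusted p = 0.000867). So did edgeR without no Dox replicate 2 (0.0467) or with no filter (0.0277), while leaving out each other library gave adjusted p from 0.0764 to 0.26. Cdx2, an activator of the later-numbered Hox genes, had 1.44 and 1.10 CPM with Dox and 3.12 and 2.65 CPM without Dox (adjusted p = 0.187). The groups of Meis2 and of Cdx2 did not overlap, and Cdx2 was named after its values were seen.

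Most factors of more rostral levels were scarce or did not pass the test. Of 12 forebrain and midbrain factors 9 were tested, none was called, and 3 had lower values with an unadjusted p under 0.05, as had 4.02% of all tested genes. Otx2, which marks forebrain and midbrain, had 1 and 6 counts with Dox and 0 in both libraries without Dox. The highest of the list was Irx3, which is also expressed in hindbrain and spinal cord, at 48.1 and 35.2 CPM with Dox and 70.5 and 59.7 CPM without Dox (log2 fold change -0.65, adjusted p = 0.251). Leaving out Dox replicate 1 gave Irx3 -0.89 (edgeR adjusted p = 0.0343), and leaving out each other library gave -0.42 to -0.76, with adjusted p from 0.112 to 1.0. Emx2 had 2.30 and 2.95 CPM with Dox and 4.70 and 6.29 CPM without Dox (adjusted p = 0.199), and En2 3.13 and 4.98 CPM with Dox and 2.28 and 2.78 CPM without Dox. Of 8 hindbrain factors edgeR called 1 higher (1.23% of all tested genes) and none lower: Tbx20, a T-box factor of cranial motor neurons, rose by log2 2.15 (SE 0.29, adjusted p = 0.0305), to 11.1 and 11.3 CPM with Dox, against 1.87 and 3.18 CPM without Dox.

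Among 12 genes of motor columns and pools, edgeR called 3 higher (1.23% of all tested genes) and none lower (0.056%), with a median log2 fold change of 0.51. Unadjusted p under 0.05 was reached by 5 with higher values (6.26% of all tested genes) and 3 with lower values (4.02%). The 3 lower ones were Lhx1 (log2 fold change -1.58, edgeR adjusted p = 0.244), Pou3f2 (-1.22, 0.382) and Aldh1a2 (-1.68, 0.322). Nkx6-2, a homeodomain factor of ventral progenitors, rose by log2 3.23 (SE 0.24, adjusted p = 0.00389), to 25.9 and 32.6 CPM with Dox, against 2.57 and 3.67 CPM without Dox. Mecom, of the medial motor column, rose to 78.9 and 75.3 CPM with Dox, against 22.9 and 18.4 CPM without Dox (1.90, SE 0.15, adjusted p = 0.004). Met, a receptor tyrosine kinase present in some limb-level motor pools, rose to 73.8 and 59.5 CPM with Dox, against 20.3 and 28.8 CPM without Dox (1.44, SE 0.21, adjusted p = 0.0402), a call lost when genes averaging under 5 CPM were dropped (adjusted p = 0.0629) and with the largest part as the count (0.0892). Foxp1, which Hox proteins need to form limb-level columns, had 50.1 and 44.3 CPM with Dox and 51.6 and 51.3 CPM without Dox (-0.13, SE 0.12, adjusted p = 0.846), and Aldh1a2, the retinoic acid synthesis enzyme of limb-level motor neurons and of mesoderm, had 5.003 and 11.9 CPM with Dox and 15.9 and 38.6 CPM without Dox (adjusted p = 0.322). Both were chosen after their values were seen.

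Genes that flank the clusters did not pass the test. Of 12 listed, 9 were tested, none was called by edgeR, and none had an unadjusted p under 0.05. Cbx5, beside Hoxc, had 701 and 614 CPM with Dox and 776 and 652 CPM without Dox. Mtx2, beside Hoxd, had 113 and 110 CPM with Dox and 112 and 138 CPM without Dox, and Skap2, beside Hoxa, had 108 and 92.9 CPM with Dox and 114 and 92.2 CPM without Dox. Evx1 and Evx2, the homeobox genes at the late-numbered ends of Hoxa and Hoxd, were at 0.214 and 0.0366 CPM with Dox and 0.294 and 0.204 CPM without Dox for Evx1, and at 0 and 1 counts with Dox and 0 and 0 counts without Dox for Evx2.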

How the data were processed

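Libraries followed the TruSeq protocol of Illumina, per the labels' protocols. The submitters' processing notes name TopHat and mm9, with no version. For the counting tool, annotation and strand setting, nothing is given in the sources used here. The authors deposited raw counts for 208825 numbered parts of RefSeq genes, a table for each sample. A read over several parts may count more than once. The 4 rows that name no gene were left out (reads outside genes 13.6% to 15.8%, ambiguous reads 0.41% to 0.52%). Replicates varied beyond sampling noise, with a chi-square of 32.6 per degree of freedom with Dox and 36.5 without.

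Parts were summed to genes and named by transcript identifier from RefSeq (GRCm38.p6) and GENCODE M21, with 98.1% of 27601 identifiers matched. One further gene that matches the symbol rule, and 1 that the rule for other lists would name, are not reported here. The test was edgeR 4.0.16 (R 4.3.3), robust quasi-likelihood F, TMM scaling, default filter, Benjamini-Hochberg over 14283 genes at 0.05. CPM use the TMM-scaled totals. Levels per kb use the longest GENCODE transcript among a gene's identifiers. Intervals are 95%. The scripts were tested on simulated data.

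Alternatives were DESeq2 1.42.0, limma-voom (limma 3.58.1), other scalings and filters, the largest part, a replicate block and leaving out each library. Members, lists and named genes were chosen with earlier results of these data known. Full statistics are given for the 3 highest levels per cluster without Dox and the 3 largest fitted changes each way. Other lists give up to 4 called genes or, with none, the 3 most abundant.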

Additional observations from a re-analysis of the deposited data

How the results depend on the processing

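No Hox gene was called higher under any alternative run. The numbers called lower were 1 with DESeq2 (Hoxb9), 0 to 2 with a library left out (Hoxb8 and Hoxb9 without Dox replicate 1) and 0 with the other scalings, filters, limma-voom and the largest part. The libraries share replicate numbers that no label ties to a shared origin. Deviations of same-numbered libraries correlated at 0.521 over all genes and at 0.689 over the 30 tested Hox genes, with only 2 pairs. In edgeR a replicate block called 6 Hox genes lower: Hoxb5 (adjusted p = 0.0419), Hoxb6 (0.00155), Hoxb8 (0.000466), Hoxb9 (4.67e-08), Hoxd3 (0.0148) and Hoxd4 (0.0196). Over all genes the block called 1047 higher and 869 lower (6.08% of genes). It also called Meis2 higher (adjusted p = 1.15e-05) and Irx3 (4.28e-05) and Emx2 (0.00108) lower. Over all genes 175 were higher and 8 lower in the test used, 403 and 116 with DESeq2, 295 and 46 with no filter, 104 and 4 when genes averaging under 5 CPM were dropped, and 276 to 283 and 22 to 124 with a library left out. Those lower were 16 with library totals, 13 with limma-voom and 14 with the largest part. The median of the Hox genes ran from -0.19 to 0.00 with a library left out. With a library left out the log2 ratio of summed CPM ran from -0.36 to -0.06 for paralogs 1 to 3, -0.21 to 0.16 for 4 to 5, -0.91 to -0.26 for 6 to 9, -0.21 to 0.02 for 10 to 13, -0.16 to 0.12 for cluster Hoxa, -0.61 to -0.15 for Hoxb, 0.05 to 0.26 for Hoxc and -0.66 to -0.04 for Hoxd. Fitted changes crossed 0 with a library left out in Hoxa3 (-0.30 to 0.01), Hoxa4 (-0.06 to 0.27), Hoxa5 (-0.02 to 0.35), Hoxa7 (-0.68 to 0.02), Hoxa10 (-0.32 to 0.00), Hoxa13 (-0.78 to 0.49), Hoxb3 (-0.24 to 0.06), Hoxb4 (-0.16 to 0.12), Hoxb7 (-0.42 to 0.05), Hoxc6 (-0.10 to 0.46), Hoxc8 (-0.13 to 0.51), Hoxc9 (-0.48 to 0.73), Hoxc10 (-0.41 to 0.12), Hoxc13 (-0.31 to 0.30), Hoxd4 (-0.71 to 0.04), Hoxd9 (-0.10 to 0.61), Hoxd13 (-0.49 to 0.36), Cbx5 (-0.24 to 0.02) and Skap2 (-0.19 to 0.13), and for Hoxd13 also with limma-voom and the replicate block (-0.03 each). The causes of these shifts were not tested. Fits without a library assume that the lone sample of its group varies like the other group. The replicate block leaves fewer degrees of freedom per gene than the test used. Its p-values therefore lean more on variance shared between genes. Among Hox genes averaging under 5 CPM without Dox, 3 of 12 had an interval inside 2-fold, against 14 of the 18 others. The part of depth in this was not tested.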
